A study of Homo sapiens with 3 samples.

Results

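A set of 10 receptor tyrosine kinase genes outside the EGFR family was examined for 2 histone marks: MET, MST1R, AXL, IGF1R, INSR, FGFR1, FGFR2, FGFR3, FGFR4 and DDR1. They were taken by name, and all 10 were found among 19974 protein-coding genes on chromosomes 1 to 22 and X. The cells were HCC1599, an established breast cancer cell line derived from 1 tumour, which the series describes as triple-negative and positive for a MARCO transcript named MARCO-TST. The 3 samples were a chromatin immunoprecipitation for H3K27ac, one for H3K4me3 and an input without antibody. All came from HCC1599 and carried no stated treatment. Each mark had 1 library, so differences between repeat libraries are unknown and nothing was tested statistically.

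Receptor tyrosine kinases span the cell membrane, bind a ligand outside the cell and phosphorylate one another and their adaptor proteins inside it. The RAS, ERK and PI3K pathways then carry the signal, and sprouty proteins, phosphatases and ubiquitin ligases limit it. In breast epithelium these receptors take part in growth, branching and survival, and several are amplified or activated in breast cancers. H3K4me3 is the trimethylated histone mark of promoters, most of them rich in CG pairs, and H3K27ac is the acetylated mark of active promoters and enhancers.

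The authors deposited 1 peak list per mark, with a position and a score for each peak. The H3K27ac list held 72894 usable peaks and the H3K4me3 list 32043. The score is the authors' own, has no stated unit and piles up at 3100, so it is used only to rank peaks within a list. Read depth is unknown, and a place without a peak is one where none was called. Local copy number could not be read from the lists, and its part in any count below was not tested. Of 6 epithelial marker genes, 6 had both marks at an annotated end, against 57.6% of protein-coding genes. None of 5 fibroblast, 5 leukocyte and 4 endothelial marker genes had both. COL1A1, CD14 and KDR had H3K4me3 only. LUM had H3K27ac only, with no peak overlapping its span. At their ends 3 fibroblast, 4 leukocyte and 3 endothelial genes had neither mark, against 27.3% of protein-coding genes. Of these, 2 fibroblast, 1 leukocyte and 2 endothelial genes had a peak in the span. Among them VWF had 7 H3K27ac peaks there and PECAM1 3. At annotated starts KRT5 had both marks and KRT8 H3K27ac only, and the other 4 epithelial genes had none listed. No start was listed for 4 fibroblast, 2 leukocyte and 3 endothelial genes either.

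A gene was called marked if any base of a peak fell within 1 kb of an end of its annotated span. All 10 receptor genes had H3K4me3 at an end, against 69.5% of protein-coding genes. H3K27ac was at an end of 8 of the 10, against 60.7% of all genes, and the same 8 had both marks, against 57.6%. MET and FGFR3 had H3K4me3 only. For AXL the marked end was the far one: its outermost start had neither mark, and the far end lay 791 bp from the start of its neighbour HNRNPUL1.

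The call was therefore repeated at annotated starts, which a RefSeq table of GRCh38.p14 lists for 9 of the 10 genes. FGFR1 has no entry there, and its higher-coordinate end was used because it is known to be read toward lower coordinates. At a start, 7 of the 10 had both marks, against 60% of the 15812 protein-coding genes with a listed start. MET, AXL and FGFR3 had H3K4me3 only, a state found in 12.1% of those genes. H3K4me3 was at a start of all 10 receptor genes, against 72.1% of genes, and H3K27ac at a start of 7, against 61.9%.

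**Figure D1:**
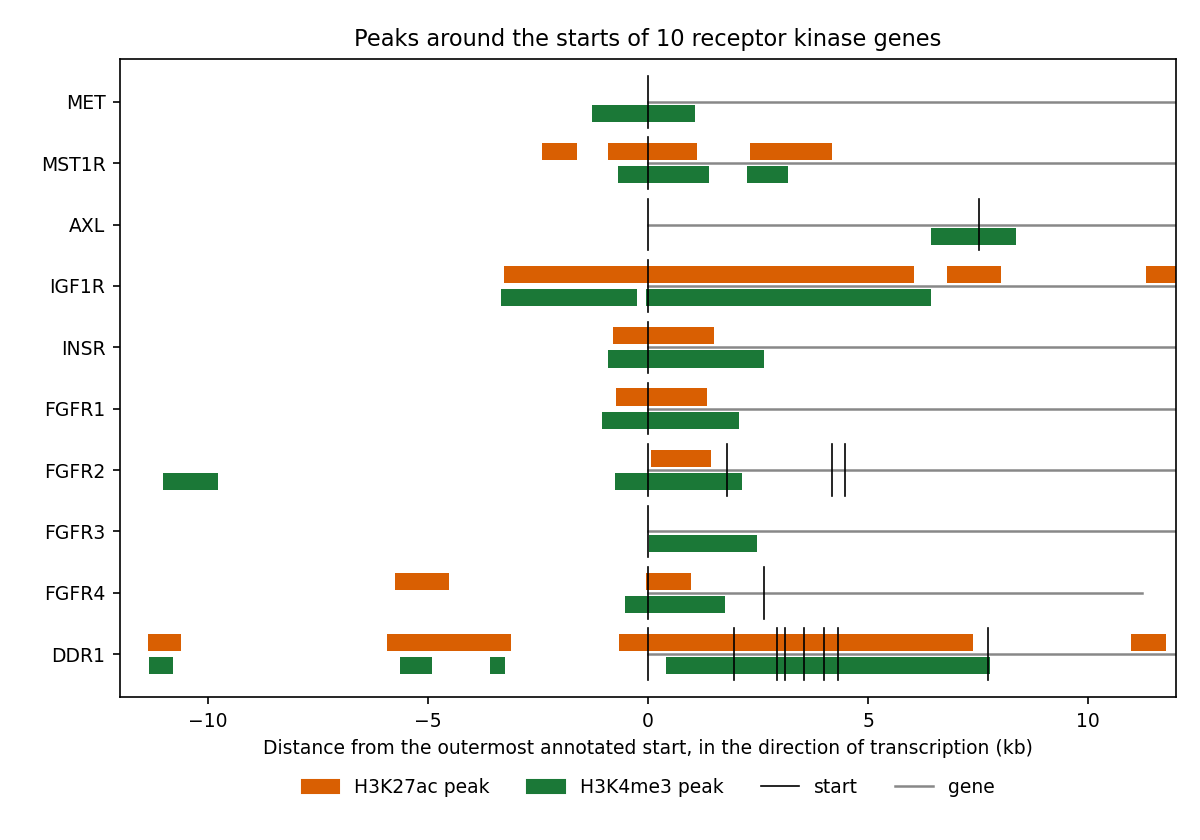
H3K27ac peaks (orange, above the gene line) and H3K4me3 peaks (green, below it) within 12 kb of the outermost annotated start of each of the 10 genes, in kb along the direction of transcription; vertical lines are starts. H3K4me3 lies at a start in all 10 rows, and H3K27ac is missing there in MET, AXL and FGFR3.

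MET encodes the receptor of hepatocyte growth factor, and MST1R, also called RON, the receptor of macrophage-stimulating protein, a related ligand. MET spans 116672196 to 116798377 of chromosome 7 (hg38), 126182 bp, and is read toward higher coordinates. Its start lay in an H3K4me3 peak of 2347 bp with a score of 3100, the only H3K4me3 peak of the gene. The nearest H3K27ac peak was 16900 bp inside it, at 116689096 to 116690114, with a score of 79.8. A second one, at 116691654 to 116692158, scored 30.0, close to the lowest score in the list, which is 30. These 2 weak peaks covered 1.21% of the gene, and the noncoding gene COMETT, at 116563594 to 116688027, also overlaps the start of MET. The only other H3K27ac peak within 50 kb lay beyond the far end, at 116802423 to 116803575, scored 58.1 and overlapped an H3K4me3 peak scored 43.4.

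MST1R, at 49887002 to 49903873 of chromosome 3, is read toward lower coordinates and is far shorter, at 16872 bp. It carried both marks at its start, H3K27ac over 2034 bp with a score of 366 and H3K4me3 over 2081 bp with a score of 1258. Both marks also occurred again inside the gene. That second H3K27ac peak, at 49899683 to 49901565, scored 266, and the H3K4me3 peak under it, of 936 bp, scored 38.9. A further H3K27ac peak of 791 bp lay upstream at 49905485 to 49906275, with a score of 81.9. The other peaks within 50 kb lay toward TRAIP, CAMKV, MON1A and RBM6, which had H3K4me3 peaks of score 3100 at their listed starts.

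The 300 bases at the start of MET, 250 before it and 50 after, are shown because that start carried strong H3K4me3 and no H3K27ac. The start of IGF1R is shown with it as a start with a score of 3100 in both lists. Capitals mark CG pairs, which number 30 in MET and 55 in IGF1R. Sequences are from RefSeq, GRCh38.p14.
MET start, chr7:116671946-116672245, plus strand: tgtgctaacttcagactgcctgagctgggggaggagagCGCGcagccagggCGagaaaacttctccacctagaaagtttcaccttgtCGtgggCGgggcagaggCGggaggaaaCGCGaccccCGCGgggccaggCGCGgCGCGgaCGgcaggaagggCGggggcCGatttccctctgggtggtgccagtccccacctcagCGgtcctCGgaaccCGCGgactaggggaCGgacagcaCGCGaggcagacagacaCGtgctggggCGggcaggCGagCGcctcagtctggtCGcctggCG
IGF1R start, chr15:98648289-98648588, plus strand: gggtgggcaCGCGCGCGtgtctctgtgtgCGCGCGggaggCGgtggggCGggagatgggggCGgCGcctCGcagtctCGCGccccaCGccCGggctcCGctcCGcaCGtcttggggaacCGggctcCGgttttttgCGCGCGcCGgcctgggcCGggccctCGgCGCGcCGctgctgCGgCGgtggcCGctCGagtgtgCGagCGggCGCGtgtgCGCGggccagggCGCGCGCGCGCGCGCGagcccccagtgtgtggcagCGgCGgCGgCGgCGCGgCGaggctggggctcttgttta

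AXL encodes the receptor of GAS6 and is known for its part in mesenchymal states and drug resistance of carcinoma cells. It spans 41219223 to 41261766 of chromosome 19, 42544 bp, and has 2 listed starts. The outer start, at 41219223, had neither mark within 1 kb; the nearest H3K4me3 peak was 6421 bp away and the nearest H3K27ac peak 28673 bp. The inner start, at 41226755, which lies 7532 bp further in, was inside an H3K4me3 peak of 1938 bp with a score of 924. No H3K27ac peak overlapped the gene at all. Among 6749 other genes of 0.5 to 2 times its length, the median was 2 such peaks (quartiles 1 and 3), and 71.5% of all protein-coding genes had at least 1.

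H3K27ac was strong just beyond the far end of AXL. A peak of 1658 bp at 41262220 to 41263877 scored 1497 and one of 2978 bp at 41264137 to 41267114 scored 3100. HNRNPUL1, which encodes a nuclear RNA-binding protein, starts at 41262557, 791 bp from the end of AXL, and these peaks lie at its start. AXL had 6 H3K27ac peaks within 50 kb that were distal, which means that no annotated gene end, coding or noncoding, lay within 2.5 kb. All 6 were nearer to an end of another protein-coding gene than to AXL, 5 of them to HNRNPUL1, and the strongest of these scored 2743.

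Both AXL starts are shown because the marks separate them. The outer one has 7 CG pairs (capitals) and the inner one 17.
AXL outer start, chr19:41218973-41219272, plus strand: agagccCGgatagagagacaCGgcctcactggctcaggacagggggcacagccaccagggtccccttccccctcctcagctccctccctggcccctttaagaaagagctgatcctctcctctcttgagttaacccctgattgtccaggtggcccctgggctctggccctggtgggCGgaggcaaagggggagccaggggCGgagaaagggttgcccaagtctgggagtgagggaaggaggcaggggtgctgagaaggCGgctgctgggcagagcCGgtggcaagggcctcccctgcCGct
AXL inner start, chr19:41226505-41226804, plus strand: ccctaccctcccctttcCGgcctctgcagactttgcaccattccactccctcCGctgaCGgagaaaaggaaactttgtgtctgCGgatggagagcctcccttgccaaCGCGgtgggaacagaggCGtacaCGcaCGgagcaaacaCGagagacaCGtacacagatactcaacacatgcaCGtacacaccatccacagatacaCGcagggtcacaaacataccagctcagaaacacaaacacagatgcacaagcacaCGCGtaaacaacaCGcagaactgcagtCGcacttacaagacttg

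DDR1 encodes a receptor kinase for collagen that is abundant in epithelial cells. It spans 30880970 to 30900156 of chromosome 6, 19187 bp, with 8 listed starts. One H3K27ac peak of 8055 bp, at 30880306 to 30888360, and one H3K4me3 peak of 7371 bp, at 30881378 to 30888748, covered the first part of the gene, each with a score of 3100. All 8 starts had both marks within 1 kb, although the H3K4me3 peak began 408 bp after the outermost one. H3K27ac covered 45.4% of the gene and H3K4me3 38.4%, the largest shares among the 10 genes. The other 2 H3K27ac peaks inside it were weak, with scores of 50.1 and 36.0.

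Upstream of DDR1 lay 4 distal H3K27ac peaks for which DDR1 was the nearest protein-coding gene. The peak at 30842922 to 30845327 scored 612 and lay inside the noncoding gene LINC02570, at 30839529 to 30848159. A peak at 30839179 to 30841271, scored 676, lay at an end of LINC02570 and was not distal. Of the other distal peaks, the one at 30869607 to 30870349 scored 92.1. A pair at 30875033 to 30876108 and 30876117 to 30877853 scored 125 and 340. The last 3 overlapped H3K4me3 peaks with scores from 34.2 to 43.2. With the peak inside the gene, DDR1 had 5 distal H3K27ac peaks, against a median of 2 in 6936 other genes of like length. On the other side, peaks at 30907266 to 30908058 and 30913194 to 30915264 lay at GTF2H4 and at VARS2.

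IGF1R encodes the receptor of insulin-like growth factors, and INSR the insulin receptor, its nearest relative. IGF1R spans 98648539 to 98964530 of chromosome 15, 315992 bp. Its start lay in an H3K27ac peak of 9327 bp at 98645255 to 98654581 and in an H3K4me3 peak of 6492 bp that began 55 bp before it; an H3K4me3 peak of 3102 bp ended 239 bp upstream, and all 3 scored 3100. IRAIN, a noncoding gene read in the opposite direction, starts under the same peaks. Beyond it, H3K27ac peaks ran along the whole gene. The gene overlapped 45 H3K27ac peaks, which covered 108585 bp or 34.4% of it, and 20 H3K4me3 peaks, which covered 11.8%. Only 9 of the 19974 protein-coding genes overlapped more H3K27ac peaks, up to 59, and only 2 overlapped more H3K4me3 peaks. Among 1696 other genes of like length the medians were 5 and 2, and 7 and 2 genes reached the counts of IGF1R.

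The IGF1R peaks differed widely in strength. Of the 45, 24 scored under 100, 14 from 100 to under 1000 and 7 at least 1000, with median widths of 964.5, 2606.5 and 6325 bp. The strongest away from the start were at 98773732 to 98780515, with a score of 3100 and inside the noncoding gene LOC124903560, at 98948795 to 98957674, also 3100, and at 98711279 to 98717023, 3082. H3K4me3 overlapped 6 of the 7 strongest, 7 of the 14 intermediate and 1 of the 24 weakest. The exception among the strong ones lay at 98666847 to 98673171 and scored 1157. The weak peak at 98783991 to 98784464, with a score of 30.1, overlapped the microRNA gene MIR4714. Neighbouring H3K27ac peaks were separated by a median of 3662 bp, and the longest stretch without one was 15766 bp, from 98824945 to 98840710.

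Of the 20 H3K4me3 peaks in IGF1R, 18 overlapped H3K27ac, where 71% of all H3K4me3 peaks did, and 11 scored at least 100. Besides the one at the start, 2 scored 3100. One, of 4866 bp at 98850050 to 98854915, lay over the higher-coordinate end of the noncoding gene LOC124903561, at 98831667 to 98852263. The other, of 2764 bp, was at 98864402 to 98867165. Apart from the peak at the start of IGF1R and IRAIN, none of the 20 had a listed start of any gene within 1 kb, but the table of starts is not complete. Outside the gene, an H3K27ac peak of 6712 bp at 98978979 to 98985690 scored 3100 and was nearer to PGPEP1L, and one of 3167 bp at 98608186 to 98611352, upstream, scored 966. Farther out, a peak of each mark with a score of 3100 lay at the start of LUNAR1, at 99013811 to 99017730 for H3K27ac and 99013780 to 99016487 for H3K4me3. LUNAR1 is a noncoding RNA known from T-cell leukaemia, where it is induced by NOTCH1 and described as an activator of IGF1R.

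INSR, at 7112265 to 7294414 of chromosome 19, 182150 bp, is read toward lower coordinates. At its start it had an H3K27ac peak of 2306 bp with a score of 1081 and an H3K4me3 peak of 3543 bp with a score of 3100. It overlapped 20 H3K27ac peaks and 7 H3K4me3 peaks, against medians of 4 and 2 in 3072 other genes of like length; 85 and 138 of those reached its counts. Its strongest H3K27ac peak was not at the start but inside the gene, at 7244714 to 7250204, 5491 bp wide with a score of 2501. An H3K4me3 peak inside the gene, of 3065 bp at 7196460 to 7199524, scored 3109 and lay next to the noncoding gene LOC124904626, at 7199584 to 7203566. Its score and that of the start peak are both at the level where scores pile up, so they give no order. All 7 H3K4me3 peaks overlapped H3K27ac, where 71% of all H3K4me3 peaks did. As in IGF1R, the overlap was more frequent at the stronger H3K27ac peaks. It was found at 2 of 2 scoring 1000 or more, 5 of 10 from 100 to under 1000 and 0 of 8 under 100. The stronger peaks were also wider, with median widths of 3898.5, 2086.5 and 805.5 bp in these classes. Shares by score class were not computed over all peaks. Whether the pattern is particular to these 2 genes was therefore not tested. The longest stretch without H3K27ac between its peaks was 26449 bp, from 7151656 to 7178104.

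**Figure D2:**
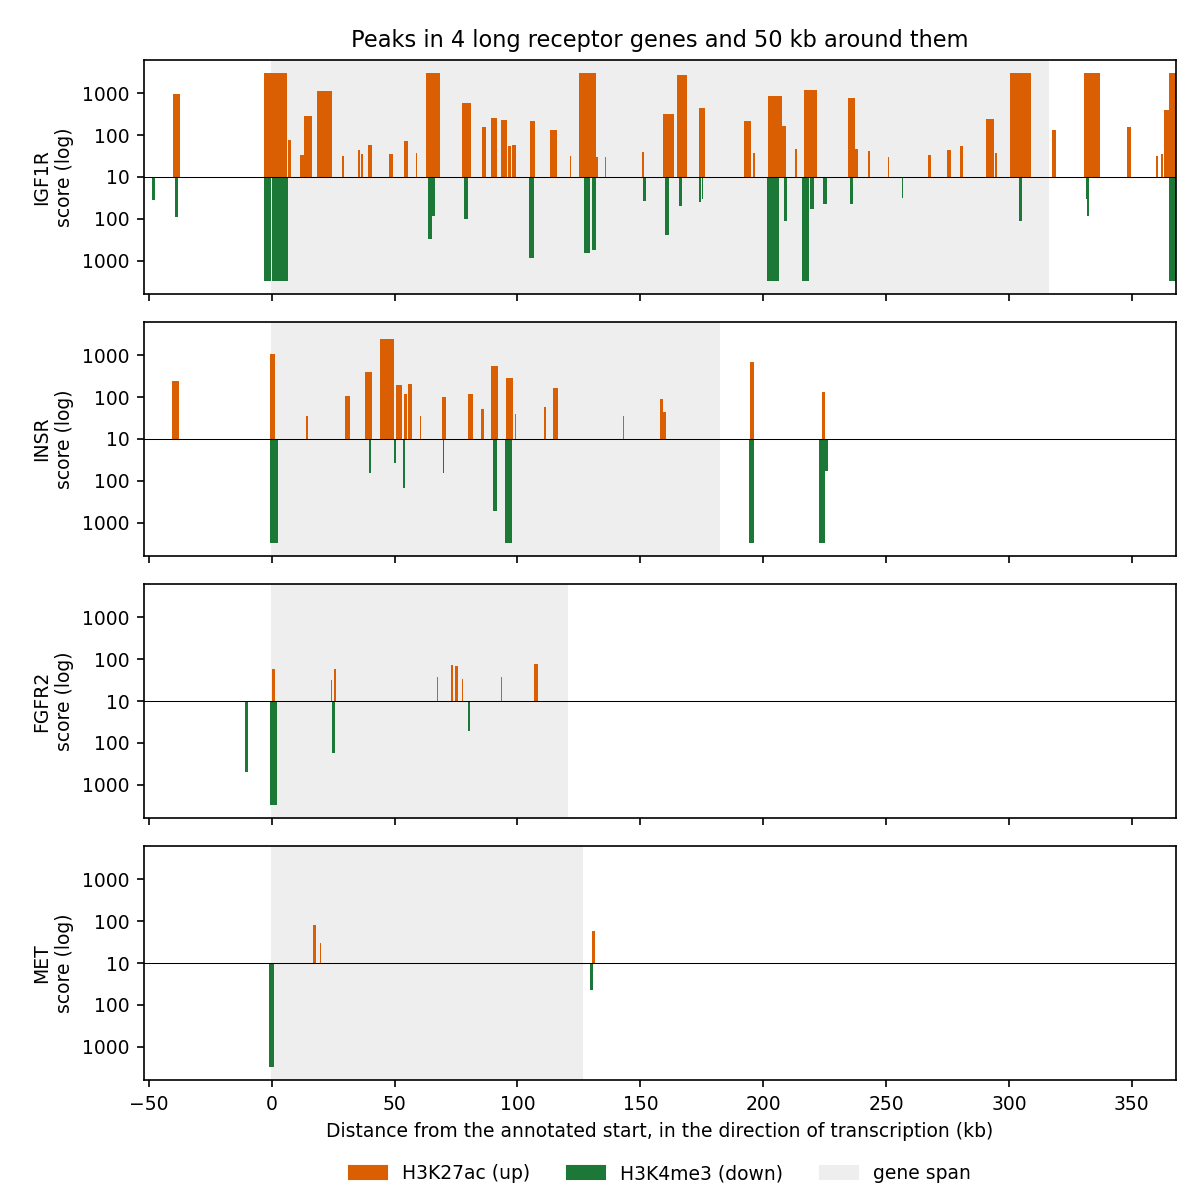
Peaks in IGF1R, INSR, FGFR2 and MET and 50 kb around them, by distance from the start in kb; bars give the peak score on a log axis from 10, H3K27ac upward and H3K4me3 downward, and grey is the gene. IGF1R and INSR hold 45 and 20 H3K27ac peaks, FGFR2 9 that all score under 100, and MET 2.

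FGFR1 to FGFR4 encode the 4 receptor kinases of fibroblast growth factors. All 4 genes had H3K4me3 at the start, and 3 of them had H3K27ac there. H3K4me3 scored 3100 at the starts of FGFR1, FGFR2 and FGFR4, over 3100, 2897 and 2259 bp, and 2206 at that of FGFR3, over 2455 bp. H3K27ac at the start scored 164 in FGFR1, 57.4 in FGFR2 and 115 in FGFR4, over 2074, 1371 and 1020 bp, and FGFR3 had none.

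FGFR1, at 38411143 to 38468635 of chromosome 8, held 1 strong H3K27ac peak away from its start. It lay at 38448217 to 38453217, 15418 bp into the gene, was 5001 bp wide, scored 1348 and overlapped no H3K4me3. The far end of FGFR1 had weak peaks of both marks within 1 kb, H3K27ac scored 68.8 and H3K4me3 35.2, where the noncoding gene LOC102723716 also lies. That H3K27ac peak lay 840 bp outside FGFR1 and covered the end of LETM2 nearer to it. The flank beyond that end held stronger peaks: an H3K27ac peak of 20370 bp at 38366814 to 38387183 scored 3105 and covered the adjoining ends of NSD3 and LETM2.

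FGFR2, at 121478330 to 121598458 of chromosome 10, 120129 bp, overlapped 9 H3K27ac peaks. Genes of like length, 4284 in all, had a median of 3 and an upper quartile of 6. All 9 were weak, with scores from 31.6 to 77.0, and with a score of at least 100 the gene would have none. The 5 listed starts were not alike. The outermost, at 121598444, and the one at 121596645 had both marks within 1 kb, those at 121594258 and 121593967 had neither, and the innermost, at 121531314, had an H3K27ac peak scored 36.8 alone. Inside the gene H3K4me3 and H3K27ac met once more, at 121572626 to 121573760 and 121572330 to 121573289, with scores of 180 and 57.0. No H3K27ac peak was called in the 50 kb on either side.

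FGFR3, at 1793293 to 1808867 of chromosome 4, overlapped no H3K27ac peak. The one nearest to its start was 39466 bp away. The one nearest to the gene, at 1832923 to 1835184, lay 24056 bp beyond its far end and scored 310. The H3K4me3 peak of FGFR3 began 33 bp after its start. The 9 H3K27ac peaks of its flanks lay toward TACC3 and LETM1, and the strongest, at 1854779 to 1858220 with a score of 2218, was at an end of LETM1. FGFR4, at 177086915 to 177098144 of chromosome 5, was the shortest of the 10 genes at 11230 bp and had 1 peak of each mark, both at its outer start. Its inner start, at 177089550, was 892 bp from the edge of that H3K4me3 peak and 1653 bp from the H3K27ac peak. Outside the gene, an H3K27ac peak scored 84.9 at 177081170 to 177082392 lay at an end of ZNF346, and one scored 344 at 177132956 to 177135775 lay inside NSD1.

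The outer and inner starts of FGFR4 are shown as a second pair within 1 gene, of which only the outer lay under peaks. They hold 30 and 2 CG pairs (capitals).
FGFR4 outer start, chr5:177086665-177086964, plus strand: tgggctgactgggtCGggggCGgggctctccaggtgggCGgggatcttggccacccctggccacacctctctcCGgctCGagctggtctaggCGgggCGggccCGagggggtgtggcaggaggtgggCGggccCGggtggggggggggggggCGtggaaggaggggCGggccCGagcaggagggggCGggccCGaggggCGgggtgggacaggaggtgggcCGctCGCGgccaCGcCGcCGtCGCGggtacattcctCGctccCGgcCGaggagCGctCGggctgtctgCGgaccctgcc
FGFR4 inner start, chr5:177089300-177089599, plus strand: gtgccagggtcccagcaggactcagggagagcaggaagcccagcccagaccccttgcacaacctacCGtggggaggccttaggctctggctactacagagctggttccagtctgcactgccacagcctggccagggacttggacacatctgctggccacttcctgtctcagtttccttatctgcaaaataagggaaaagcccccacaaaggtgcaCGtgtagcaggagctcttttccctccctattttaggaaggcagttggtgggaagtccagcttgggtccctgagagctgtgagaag

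The median H3K27ac score at the starts of the 7 receptor genes marked there was 366, against 627 (quartiles 217 and 1651) over the 9784 genes with H3K27ac at a listed start, each counted by its strongest peak. IGF1R and DDR1, at 3100, and INSR, at 1081, were above the median of all such genes. MST1R, at 366, was below it but within the quartiles, and FGFR1, FGFR4 and FGFR2 were below the lower quartile. Only 7.06% of the marked genes scored lower than FGFR2. H3K4me3 does not order the genes this way, because 78.5% of the 11403 genes with it at a start scored 3100 or more. Of the 10 receptor genes 7 did, and MST1R (1258), AXL (924) and FGFR3 (2206) did not.

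**Figure D3:**
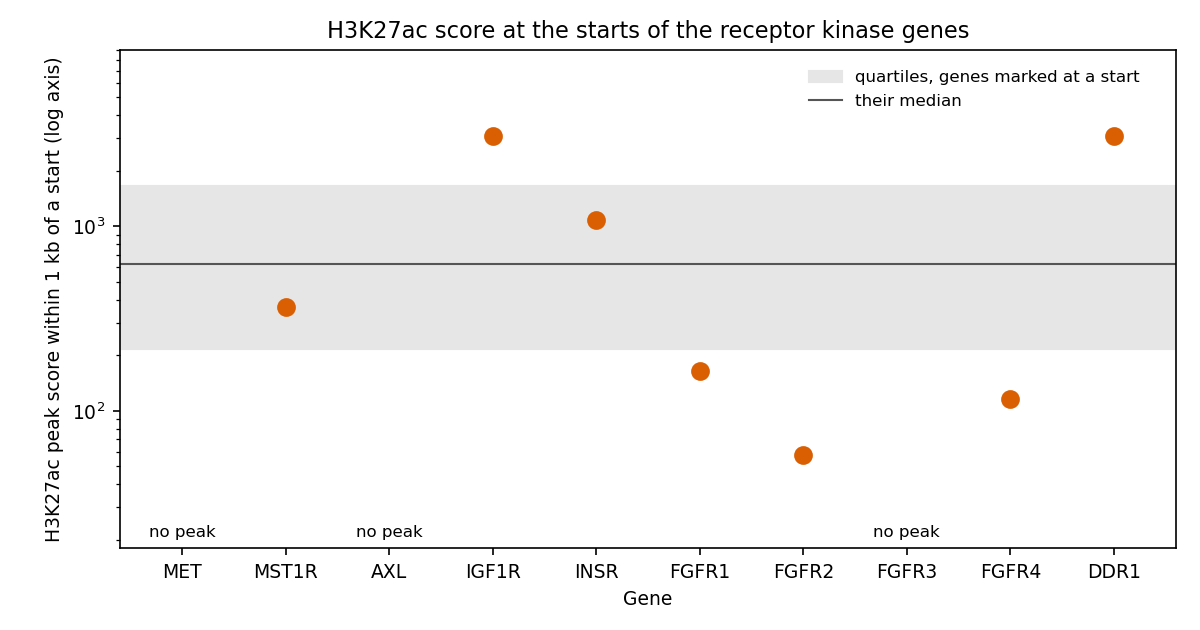
Score of the strongest H3K27ac peak within 1 kb of a start of each gene, on a log axis; the band and line are the quartiles and median of all genes with such a peak. IGF1R and DDR1 are at 3100, FGFR1, FGFR2 and FGFR4 lie below the band, and MET, AXL and FGFR3 have no peak.

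In all, the spans of the 10 genes overlapped 84 H3K27ac and 40 H3K4me3 peaks. Of the 84, 39 scored at least 100, against 39.9% of all H3K27ac peaks. IGF1R held 53.6% of the first and 50% of the second, and without it 39 and 20 remained. The median per gene was 2 of each mark, against 1 of each over all protein-coding genes. The receptor genes were also longer, with a median span of 50018.5 bp, against 24170.5 bp over all protein-coding genes. A score of at least 1000 for an H3K27ac peak in the span was reached by IGF1R (7 peaks), INSR (2), FGFR1 (1) and DDR1 (1), and by 27.1% of all genes.

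**Figure D4:**
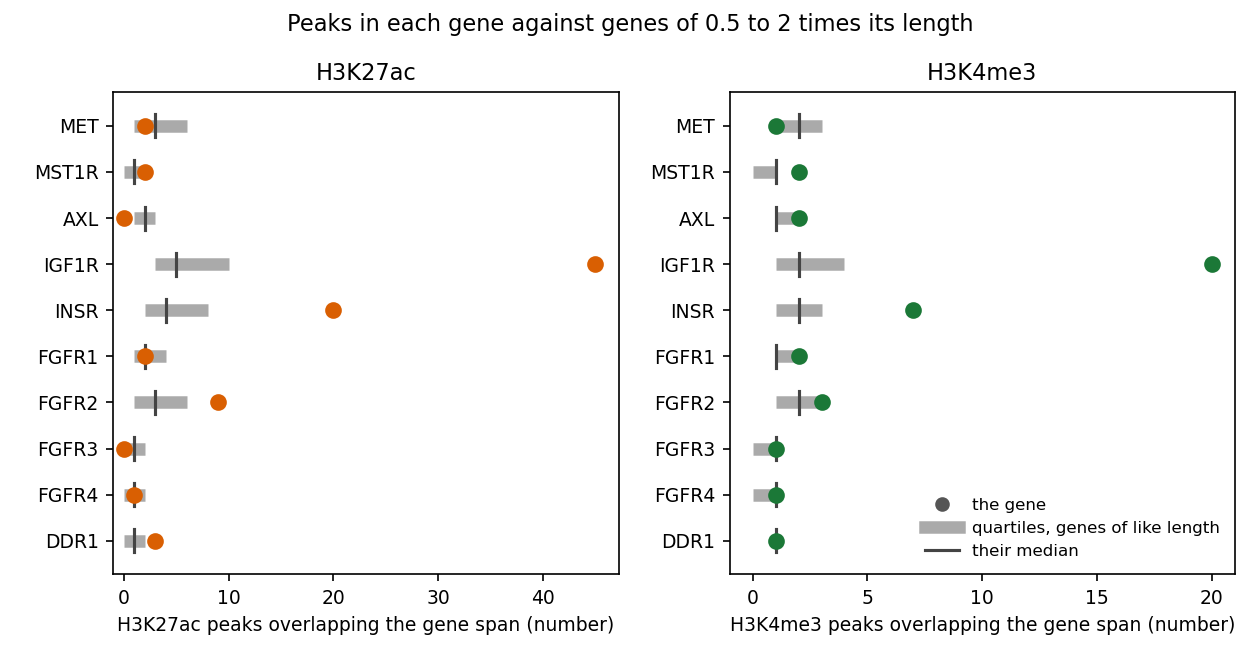
Number of H3K27ac (left) and H3K4me3 (right) peaks overlapping each gene (points), with the quartiles (bars) and median (line) of protein-coding genes whose length is 0.5 to 2 times that of the gene. IGF1R, with 45 and 20, and INSR, with 20 and 7, lie beyond the upper quartile in both panels, and AXL and FGFR3 have no H3K27ac peak.

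Within the spans and 50 kb around them, 54 of 142 H3K27ac peaks overlapped H3K4me3 (38.0%, exact Clopper-Pearson 95% interval 30.0 to 46.5, counting error only), against 34.8% of all H3K27ac peaks. The interval includes that background. Of 71 H3K4me3 peaks, 58 overlapped H3K27ac (81.7%, 70.7 to 89.9), against 71% of all H3K4me3 peaks, which lies just inside the interval. Neighbouring peaks are not independent, so both intervals are too narrow.

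Distal H3K27ac peaks were found in the span or within 50 kb of all 10 genes, as at 79.6% of protein-coding genes. They numbered 93, of which 69 were inside the spans and 24 outside, and 18 of those 24 were nearer to another protein-coding gene. IGF1R had 45, INSR 18 and FGFR2 8, AXL had 6, FGFR3 and DDR1 5 each, MET and FGFR1 2 each, and MST1R and FGFR4 1 each. Without IGF1R 48 remained. Distal was measured from gene ends only. An FGFR2 peak counted here, at 121530645 to 121531096, lay 218 bp from a listed start of FGFR2. With distance from every listed start also required, 92 of the 93 remained. The median of the 10 was 5, against 2 over all genes. IGF1R and INSR had the most: 6 and 205 of all protein-coding genes had more, while the medians at like length were 6 and 5. MET, with 2 against a median of 4 at its length, had fewer than most, and 3298 of 4172 other genes of like length had at least as many. FGFR1, with 2 against 3, and MST1R and FGFR4, each with 1 against 2, were also below the median at their length. AXL, with 6 against 3, FGFR2, with 8 against 4, and FGFR3 and DDR1, each with 5 against 2, were above it. Of the 93 distal peaks 25 overlapped H3K4me3 (26.9%, 18.2 to 37.1), against 18.4% of all distal H3K27ac peaks, which is inside the interval.

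By marks at the ends and peak counts in the span, MST1R and FGFR1 were the most alike, with equal counts. MET and FGFR3 differed by 2 peaks in all, as did AXL, FGFR4 and DDR1 from MST1R and from other genes tied with it. For AXL this match rests on the marks of its far end, beside the start of HNRNPUL1. By marks at starts AXL had H3K4me3 only, as MET and FGFR3 did. Its span held 0 H3K27ac and 2 H3K4me3 peaks, and that of FGFR3 0 and 1. A match by marks at starts was not made. The gene most like IGF1R was INSR, still 38 peaks apart.

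With 1 window of 300 bases at the outermost listed start of each of the 9 receptor genes, the median was 30 CG pairs, against 22 over 15812 protein-coding genes. All 22 windows at receptor gene starts ranged from 2 to 55, with a median of 10, against 21 over 22132 windows at starts of protein-coding genes. That lower median rests on DDR1, whose 8 starts lie close together: without it the median of the other 14 windows was 21. IGF1R (55), the outermost start of FGFR2 (52) and FGFR3 (51) had the most; 0.434%, 0.971% and 1.26% of all windows had at least as many. Over all windows the median was 27 where both marks lay within 1 kb (quartiles 19 and 35), 25 with H3K4me3 only and 5 with neither. FGFR3 and MET (30) had H3K4me3 without H3K27ac, and their CG counts were above the median of starts with both marks. The other starts with H3K4me3 only were below the lower quartile of starts with both, with 17 at the AXL inner start and 2 at the FGFR4 inner start. The latter lay 892 bp from the H3K4me3 peak of the FGFR4 outer start. The AXL outer start, with 7, and the unmarked FGFR2 starts, with 7 and 8, were near the value of unmarked windows. The marks did not follow the count at every start: FGFR2 had both marks within 1 kb of a start with 7 CG pairs, and DDR1 of starts with 3 to 34, each pair or group of starts lying under or beside 1 shared peak.

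**Figure D5:**
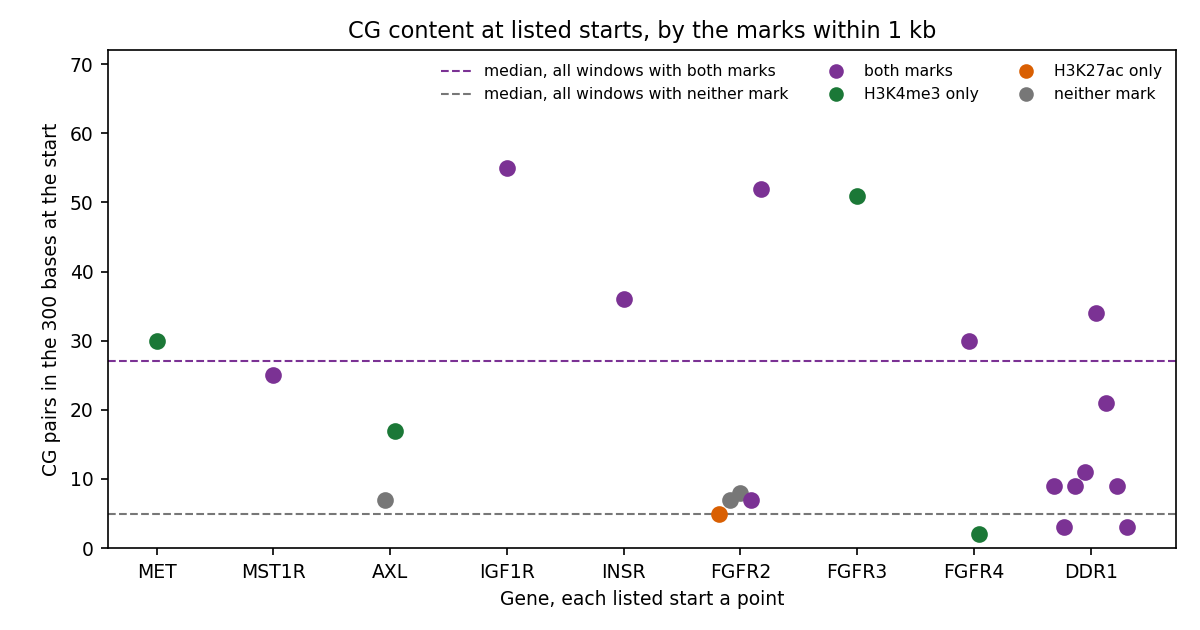
CG pairs in the 300 bases at each listed start of the 9 genes that have one, coloured by the marks within 1 kb; dashed lines are the medians of all windows with both marks (27) and with neither (5). IGF1R, FGFR3 and the outermost FGFR2 start exceed 50, and the unmarked starts of AXL and FGFR2 have 7 or 8.

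GGGCGG, the GC box bound by SP factors, was searched on both strands, as itself or as CCGCCC, with overlapping matches counted. It was in 13 of the 22 receptor windows, and in 56.3% of all windows; of the 9 outermost starts 8 held it, DDR1 being the exception, against 58.3% of the outermost starts of all genes. FGFR3 had 8 matches, FGFR4 7 at its outer start, FGFR2 5 at its outermost start, MST1R 5, INSR 4 and MET 3. IGF1R had 2, and so did the AXL outer start, which had neither mark. The AXL inner start and the FGFR4 inner start, both with H3K4me3 within 1 kb, had none. A match describes these letters and is not a bound site.

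The rest of the pathway was described by the marks at either end of 73 genes in 8 lists. As for AXL, a marked end need not be a start. At an end 49 had both marks, 14 H3K4me3 only, 1 H3K27ac only and 9 neither. Over all protein-coding genes the shares were 57.6%, 11.9%, 3.16% and 27.3%. At a listed start 40 had both marks, 9 H3K4me3 only and 7 neither, and 17 genes had no listed start. Of all genes with a listed start 60% had both marks, 12.1% H3K4me3 only and 26.0% neither. The 14 ligand genes were mixed: 5 had both marks, 3 H3K4me3 only and 6 neither, where 57.6% of all genes had both and 27.3% neither. MST1, the ligand of MST1R, GAS6, the ligand of AXL, with PROS1, FGF2 and FGF9, had both; FGF10, FGF18 and FGF19 had H3K4me3 only. HGF, the ligand of MET, and IGF1 and INS, hormones that bind IGF1R and INSR, had neither mark, with no peak in their spans. IGF2 had neither at its ends but 3 H3K4me3 peaks in its span, and 3 of the 6 ligand genes with unmarked ends had a peak in the span. One of these was FGF1, named after its values were seen: a listed start had H3K27ac with a score of 44.2 and H3K4me3 with one of 66.1, and its span held 6 H3K27ac peaks. Genes that activate HGF, or restrain that step, differed. The protease gene ST14 and the inhibitor genes SPINT1 and SPINT2 had both marks, with H3K27ac scores of 2080, 3100 and 3100. HPN had H3K27ac only, at an end, and HGFAC neither mark. At a listed start HPN had neither mark, and no peak overlapped its span.

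Adaptor genes had both marks in 12 of 12 cases, where 57.6% of all protein-coding genes had both. At a listed start 10 had both marks, against 60% of genes with a listed start, and 2 had none listed. GAB1, a docking protein of MET, had an H3K27ac score of 1493, GRB2 245, SHC1 3100 and FRS2, the adaptor of the FGF receptors, 455. Genes of inhibitors of receptor signalling had both in 13 of 14, against the same 57.6%, and IL17RD had H3K4me3 only. Among the 13 were the ubiquitin ligase genes CBL and CBLB and the sprouty genes SPRY1 and SPRY2. At a listed start 11 of the inhibitor genes had both marks and 2, IL17RD and SPRY4, H3K4me3 only, and 1 had no listed start. Over all genes with a listed start 60% had both marks and 12.1% H3K4me3 only. Of 8 genes induced by ERK signalling 7 had both, again against 57.6%, and DUSP4 had H3K4me3 only. ETV4, ETV5, DUSP5 and EGR1, among the 7, had H3K27ac scores of 962, 30.4, 53.6 and 1133. FOSL1, also among the 7, had 0 H3K27ac peaks in its span. At a listed start 3 of the 8 had both marks, against the same 60%, and 5 had no listed start.

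IGF-binding protein genes, whose products hold IGFs in the extracellular space, showed H3K4me3 only in 6 of 7 cases: IGFBP1, IGFBP2, IGFBP3 and IGFBP5 among them, with H3K4me3 scores of 1457, 2592, 3100 and 1667. IGFBP4 had both marks, with an H3K27ac score of 113. Over all protein-coding genes 11.9% were in the H3K4me3-only state. At a listed start 4 of the 7 had H3K4me3 only, against 12.1% of genes with a listed start. There 1 had both marks, and 2 had no listed start. Of 7 co-receptor genes 5 had both marks, against 57.6% of all genes, including SDC1, GPC1, CD44 and PLXNB1, KL had H3K4me3 only and KLB neither at its ends. Of 6 related receptors TYRO3, MERTK and IGF2R had both, INSRR and FGFRL1 H3K4me3 only at their ends and DDR2 neither at its ends. However, DDR2 had 9 H3K27ac peaks in its span, and DDR2 and FGFRL1 had both marks at a listed start. INSRR had no listed start and no peak of either mark in its span.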

How the data were processed

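H3K27ac and H3K4me3 were measured by ChIP-seq in HCC1599 cells, with 1 library each and an input that is not analysed here. Sonication and micrococcal nuclease cut the cross-linked chromatin, per the labels' protocols, so peak edges depend on digestion. Bowtie2, MACS 1.4 and hg38 are named in the submitters' processing notes; the Bowtie2 version and all parameters are not given in the sources used here. The score of each peak was deposited by the authors with no stated unit.

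Only peaks of chromosomes 1 to 22 and X entered the counts, with positions counted from 1. Gene spans and starts came from RefSeq tables of GRCh38.p14, the same build family; 15812 of 19974 protein-coding genes had a listed start. Exons were not known. Windows were 1 kb either side of an end or start, flanks 50 kb, and distal H3K27ac peaks lay more than 2.5 kb from ends of all 59098 genes of every kind. Overlap meant at least 1 bp. Genes of like length had 0.5 to 2 times the span. All 10 members were named; in each list, up to 6 genes of the smaller states and the first 4 of the largest. Neighbouring genes were named where they share a marked end or lie nearer to a peak; others, such as COMETT and LUNAR1, were chosen after their values were seen. The members and lists were chosen with earlier results of these data known. Scores at starts, CG counts and the GC box search were chosen after seeing the data. Alternatives were score minimums, windows, starts, overlap, distal distance, flanks, merging of peaks and, chosen after seeing the data, the outermost start, starts with a score minimum, distance from every listed start and leaving out IGF1R or DDR1. Python 3.11.15, numpy 2.4.6, pandas 2.3.3 and scipy 1.17.1 were used; overlap counts differed from bedtools 2.31.1 at 0 of 39948 gene ends, and the code was tested on simulated data.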

Additional observations from a re-analysis of the deposited data

How the results depend on the processing

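With 1 library per mark, variation between libraries is unknown, and 45 of the 84 H3K27ac peaks in spans scored under 100. The counts of genes marked at an end stayed within 1.5 times the value reported under all 8 alternatives tried for each. Both marks were at 6 to 8 genes, H3K4me3 at 8 to 10 and H3K27ac at 6 to 8. Listed starts alone gave 7, 10 and 7. Shares over all genes are given only for the main setting and for listed starts.

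Peak counts moved with the score and with IGF1R. With a score of at least 100, the spans held 39 H3K27ac and 25 H3K4me3 peaks, in place of 84 and 40, and 41 distal H3K27ac peaks in place of 93. With a score of at least 50, they held 55 H3K27ac peaks and 58 were distal. Counts over all genes are not given at these score minimums. Without IGF1R, chosen after seeing the data, 39 H3K27ac and 20 H3K4me3 peaks remained in spans and 48 distal ones. The share of H3K27ac peaks on H3K4me3, 38.0%, was 47.9% with a score of at least 100 in both lists and 26.1% where 50% of the peak had to be covered. The share over all H3K27ac peaks is not given at either of these settings. Neither value can therefore be set beside the share over all peaks given above. The higher score minimums and the omission of IGF1R leave fewer peaks to count; the cause of the shifts in the share was not tested. The median of CG pairs at starts also moved, to 30 with outermost starts and 21 without DDR1, in place of 10. Of 51 alternative values, 39 stayed close to those reported, among them every window, distal distance, flank and merging alternative. No paired analysis was possible because each mark has 1 library.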

Other observations

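Some further peaks in the flanks of the FGF receptor genes were not described above. Beside FGFR1, the H3K4me3 at NSD3, a histone methyltransferase gene, and LETM2 formed peaks of 7086 and 14214 bp, both with a score of 3100, and a further H3K27ac peak of 6955 bp at 38359091 to 38366045 of chromosome 8 scored 1478. Beside FGFR2, an H3K4me3 peak of 1257 bp at 121608210 to 121609466 of chromosome 10 scored 490 and overlapped no H3K27ac. Beside FGFR3, an H3K4me3 peak of 1648 bp at 1766702 to 1768349 of chromosome 4 scored 672, also without H3K27ac.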
